A study of Mus musculus with 18 samples.

Results

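The Dppa genes (developmental pluripotency associated) are defined here as Dppa2, Dppa3, Dppa4 and Dppa5a, the 4 members chosen by name among 18876 mouse genes tested. Dppa3 is better known as Stella, and the array files carry Dppa5a under its older symbol Dppa5. Their RNA was measured on 18 one-colour Agilent arrays, 2 for each of 9 groups of sorted cells. Mouse embryonic stem (ES) cells of the Stella-GFP and Dazl-GFP lines were grown with Lif on feeder fibroblasts and sorted into GFP+ and GFP- cells, which gives 4 of the groups. For the next 3 groups feeder cells were removed, the ES cells were plated on gelatin in differentiation medium, and GFP+ cells were sorted, after 7 days from the Stella-GFP line and after 12 and 16 days from the Dazl-GFP line. Dazl-GFP+ cells sorted from E13.5 gonads and from juvenile testes of postnatal days 7 to 11 make up the last 2 groups. All samples carry the labels male and mixed C57BL/6 129SV background, and every group other than the GFP- ES cells was selected on a GFP reporter. Each ES line is a single line, the juvenile samples span several postnatal days, and no label says whether cells of several embryos or animals were pooled. Nor is it stated that the 2 arrays of a group come from separate cultures or animals. Each p-value of the main fit rests on a single spread per gene, that of arrays within a group pooled over the 9 groups. This spread may be technical. A gene's standard error is thus the same for every pair of groups, although the members' E13.5 arrays lay farther apart than those of any cultured group.

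Stella is a small basic protein that is made in the egg, in the early embryo, in a share of ES cells and in primordial germ cells, the embryonic precursors of sperm and eggs. In the mouse zygote it protects methylated DNA of the maternal genome from oxidation by Tet3, and it binds Uhrf1, which brings the maintenance methyltransferase Dnmt1 to replicating DNA. Dppa2 and Dppa4 are SAP-domain proteins that bind chromatin as a pair, keep developmental promoters from gaining DNA methylation in ES cells, and lie upstream of Dux and the genes of the 2-cell embryo. Dppa5a is an RNA-binding protein of the KH-domain type found in pluripotent and germ cells. All 4 genes are used as markers of pluripotency or of early germ cells.

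By the chromosomes given in the authors' deposited table, Dppa3 lies on chromosome 6, Dppa2 and Dppa4 on chromosome 16, and Dppa5a on chromosome 9. In the RefSeq annotation of GRCm38.p6 Dppa3 sits between Gdf3 and Nanog, and Dppa2 and Dppa4 are direct neighbours. Dppa2, Dppa3 and Dppa4 had 1 probe each and Dppa5a had 2. All 5 probes were well above background on all 18 arrays, and none was saturated. The pseudogenes Dppa3-ps, Dppa5b and Dppa5c are annotated, so that cross-hybridisation to related transcripts is possible for Dppa3 and Dppa5a. A level is the log2 signal of a spot relative to the 75th percentile of its array. Each probe has its own brightness, so levels of different genes are not compared.

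The 75th percentile of the signal ranged from 103 to 474 units, and 50.6 to 68.9% of spots were well above background. Replicate arrays correlated at r = 0.994 for day 7 and at 0.943 for E13.5, the extremes of the 9 groups. Summed over the pluripotency list, the linear level was 197 to 573 in ES cells, and summed over the gonadal germ cell list it was 108 to 167 in E13.5 cells and 139 to 191 in juvenile cells, against 2.44 to 5.84 in ES cells. The library labelled E13.5 replicate 1 went against its sex label. It was not well above background for the Y-linked genes Ddx3y and Eif2s3y, at -7.45 and -7.29, whereas E13.5 replicate 2 had -1.36 and 3.17. Each member's E13.5 differences are therefore given with and without that library, and changes in other genes without it are named. The day 7 arrays had slides and an extraction protocol of their own, and the E13.5 and juvenile arrays shared a slide that held no cultured cells, so in comparisons across those borders slide and group cannot be told apart.

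Which members were called varied between comparisons, and all 4 were called lower at the last step. Differences between the members were not tested. The call was limma's adjusted p under 0.05, over all 18876 genes. In the Stella sort 0.44% of all genes were called, and 1 of the 4 members was, Dppa3. In the Dazl sort 2.87% of genes and 1 member, Dppa2, were called. Stella day 7 cells against Stella GFP+ ES cells gave 20.6% of genes and 1 member, Dppa2. None of the 4 was called in Dazl day 12 cells against Dazl GFP+ ES cells, where 27.3% of genes were, in day 16 cells against the same ES cells (24.7%), or in day 16 against day 12 cells (1%). E13.5 cells differed in Dppa2 and Dppa3, 2 members, from Dazl GFP+ ES cells (44.8% of genes called), day 12 cells (42%) and day 16 cells (42.5%), and in Dppa2 alone from day 7 cells (43.2%). These 4 comparisons share the E13.5 arrays. In juvenile testis cells against E13.5 cells all 4 members were lower, where 18.9% of all genes were called lower and 34.8% were called in either direction. In bulk RNA, fewer cells with a transcript and less of it in each cell cannot be told apart.

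**Figure D1:**
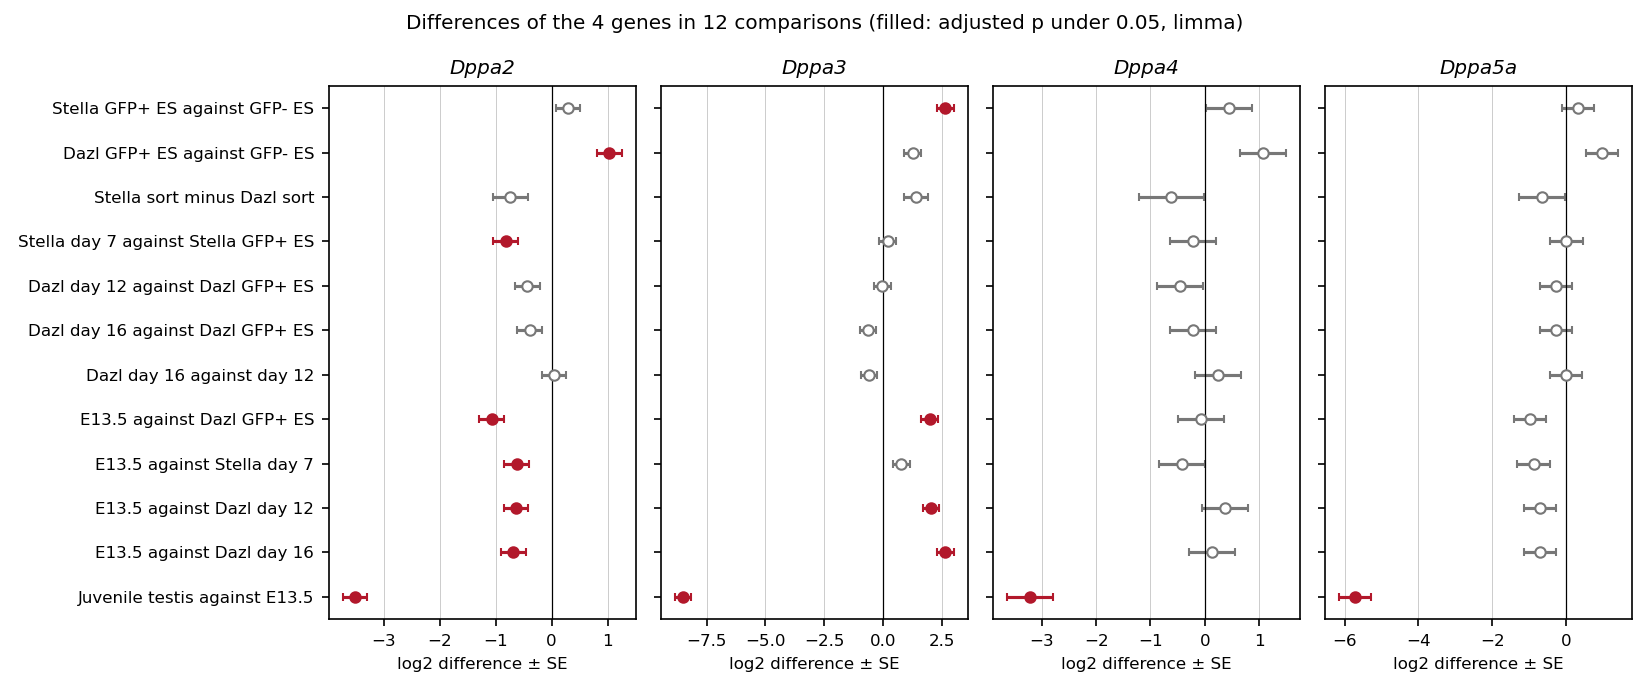
Log2 differences with standard errors of the 4 members in the comparisons between groups, 2 arrays per group. The juvenile testis differences lie between -3.22 and -8.49, and the differences between cultured groups lie between -0.82 and 2.63.

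Dppa3 was the member with the widest range of levels among the cultured cells. Stella GFP+ ES cells had 5.15 and 5.34, against 2.60 and 2.63 in Stella GFP- ES cells. Dazl GFP+ ES cells had 4.19 and 4.26, against 2.93 and 3.04 in Dazl GFP- ES cells. All 4 GFP+ arrays lay above all 4 GFP- arrays, as they did for 3.57% of all genes. Levels then stood at 5.35 and 5.51 on day 7 of the Stella line, at 4.20 and 4.15 on day 12 and at 3.55 and 3.58 on day 16 of the Dazl line. E13.5 cells held the highest mean level and juvenile cells the lowest, with 5.43 and 6.95 in E13.5 cells and -2.17 and -2.43 in juvenile cells. The E13.5 mean was 6.19 ± 1.07 (SD, n = 2), a spread several times that of any cultured group, since its replicate 1 lay among the day 7 arrays and its replicate 2 above every other array.

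**Figure D2:**
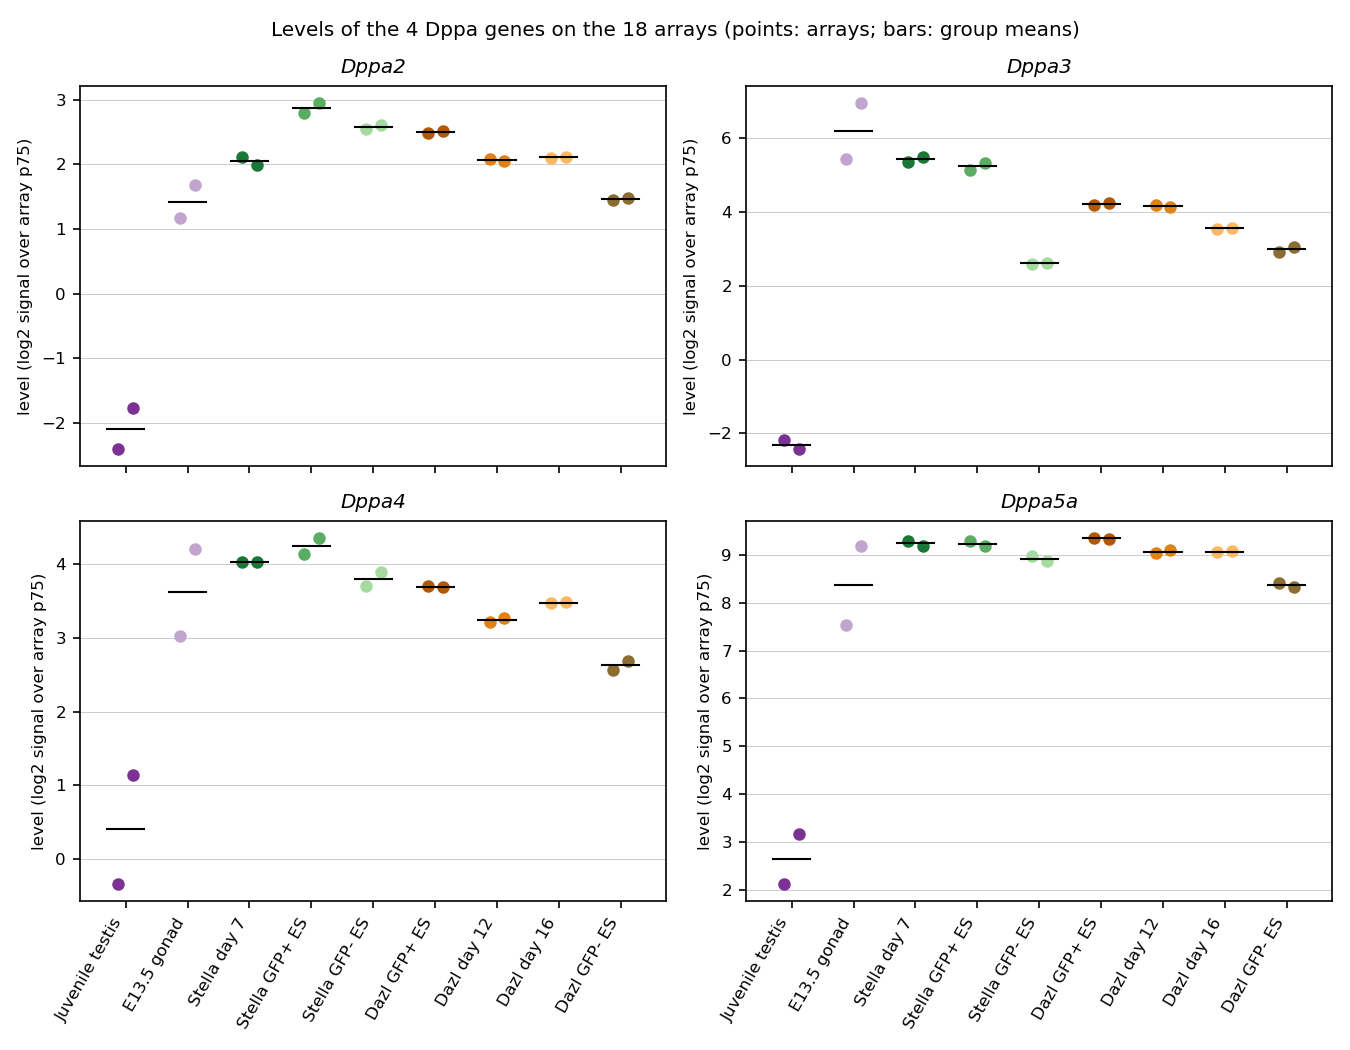
Level of each member on every array, as log2 signal over the array's 75th percentile, with a bar for the mean of the 2 arrays of a group. Juvenile testis arrays are the lowest for every member, and the 2 E13.5 arrays lie farther apart than the 2 arrays of any cultured group.

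In the Stella sort Dppa3 was 2.63 ± 0.35 higher on the log2 scale in GFP+ cells (SE, 6.18-fold, adjusted p = 0.0114). The reporter is driven by the same gene, so the difference shows that the gate separated cells by Stella RNA and is no finding about other genes. The difference was 2.54 on one slide and 2.71 on the other. The adjusted p was 0.0715 with slide as a block and 0.505 in a fit of these 4 arrays alone. Leaving out GFP- replicate 1, GFP- replicate 2 or GFP+ replicate 2 gave 0.0790, 0.0587 and 0.0566, with differences of 2.53 to 2.64.

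In the Dazl sort Dppa3 was 1.24 ± 0.35 higher in GFP+ cells, with an adjusted p of 0.101. It passed with 0.00115 when the discordant E13.5 library was left out of the shared estimate of spread. Taken as the Stella-line difference less the Dazl-line one, the contrast of both sorts was 1.39 ± 0.50 for Dppa3 with an adjusted p of 0.734, in a test that called 0.0318% of all genes and none of the 4 members. Without E13.5 replicate 1 it was 0.0243 at the same difference. The other members had sort differences of 0.29 (Dppa2), 0.45 (Dppa4) and 0.32 (Dppa5a) in the Stella line, all at an adjusted p of 0.9999. Their GFP+ arrays lay above their GFP- arrays without overlap, as did those of 15.1% of all genes.

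Dppa3 did not pass the test after differentiation. It differed by 0.19 ± 0.35 between day 7 and Stella GFP+ ES cells (adjusted p = 0.755), by -0.05 between day 12 and Dazl GFP+ ES cells, and by -0.66 between day 16 and the same ES cells (0.201). The last of these had an adjusted p of 0.00472 without E13.5 replicate 1. Day 16 against day 12 gave -0.61 (0.845). Across the lines, day 7 cells were 1.25 higher than day 12 cells (0.0275) and 1.86 higher than day 16 cells (0.00417), pairs in which 21.4 and 20.4% of genes were called and which compare cells sorted on different reporters and arrays of different slides.

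In E13.5 cells Dppa3 was 1.97 ± 0.35 higher than in Dazl GFP+ ES cells (adjusted p = 0.00091), 2.02 higher than on day 12 (0.00094) and 2.63 higher than on day 16 (0.000162). Against day 7 the difference was 0.76 (0.103). These values depended on which E13.5 library was used. Without replicate 1 they were 2.73, 2.78, 3.38 and, against day 7, 1.52 (8.78e-05). Without replicate 2 they were 1.21, 1.26, 1.87 and, against day 7, 0.00 (0.987). The higher level against the 3 Dazl-line groups was thus called with either library, and that against day 7 with replicate 2 alone. Markers of other cells differed as well. The summed level of the 11 fibroblast markers was 1.44 and 1.84 in E13.5 cells, against 41.4 to 44.8 in Dazl GFP+ ES cells, and 9 were called lower. Among 3 erythroid genes tested, the haemoglobin gene Hba-a1 was higher by 3.17 and the other 2 were not called. The part of these cells in the E13.5 differences of the members was not tested.

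Dppa3 had the steepest decrease of the family at the last step. In juvenile testis cells it fell by 8.49 ± 0.35 on the log2 scale, against E13.5 cells (360-fold, adjusted p = 1.1e-07). The difference was -9.25 without E13.5 replicate 1 and -7.73 without replicate 2. Both groups were on 1 slide. Markers of Sertoli cells, the somatic support cells of the testis, had a higher sum in juvenile cells. The summed linear level of 8 Sertoli markers was 12.6 and 48.6 in the 2 juvenile samples, against 1.48 in E13.5 replicate 1 and 8.26 in replicate 2. The same sum was 6.71 to 6.76 in Dazl GFP+ ES cells, so it is not specific to Sertoli cells. Of the 8 markers 4 were called higher, and 1 without E13.5 replicate 1. Fibroblast markers had a summed level of 7.16 and 8.39 in juvenile cells, against 1.44 and 1.84 in E13.5 cells, with 5 of 11 called higher, and 3 without E13.5 replicate 1. The part of these cells in the lower member levels was not tested.

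Dppa2, the first of the SAP-domain pair, was higher in Dazl GFP+ than in Dazl GFP- ES cells. It had 2.48 and 2.51 in GFP+ cells, against 1.45 and 1.48 in GFP- cells, a difference of 1.03 ± 0.22 (2.04-fold, adjusted p = 0.033) and of 1.03 on each of the 2 slides. The GFP- cells of this line stood lowest of all cultured groups for Dppa2, and Stella GFP- ES cells were 1.11 ± 0.22 higher than they were (0.0251, with 2.39% of genes called). Leaving out any 1 of the 4 arrays of the sort gave an adjusted p of 0.176 to 0.208 with differences of 1.01 to 1.05, and slide as a block gave 0.110. Normexp background correction gave 0.67 (0.424). Feeder RNA moved with this sort. The summed linear level of 11 fibroblast markers was 41.4 to 44.8 in Dazl GFP+ cells, against 9.29 to 9.81 in Dazl GFP- cells, and 6 of the 11 were called higher. Its part in the difference was not tested.

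On day 7 Dppa2 had 2.11 and 1.98, against 2.79 and 2.94 in Stella GFP+ ES cells, so it fell by 0.82 ± 0.22 in the differentiated cells (1.77-fold, adjusted p = 0.023). The call was lost without GFP+ replicate 1 (0.0540), GFP+ replicate 2 (0.103), day 7 replicate 1 (0.0901) or day 7 replicate 2 (0.129), and under quantile normalization (-0.60, 0.0783) and normexp (-0.55, 0.0942). Fibroblast markers were lower too, at a summed level of 4.36 to 4.48 on day 7, against 6.75 to 20.4 in Stella GFP+ ES cells, and this was not tested as a part of the difference. In the Dazl line Dppa2 stood at 2.07 and 2.05 on day 12 and at 2.10 and 2.11 on day 16. The differences from Dazl GFP+ ES cells, -0.43 and -0.39, did not pass the test (0.170 and 0.223).

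In E13.5 cells Dppa2 had 1.16 and 1.68, below every array of the Stella line and of Dazl GFP+, day 12 and day 16 cells. Its log2 difference was -1.07 ± 0.22 from Dazl GFP+ ES cells (adjusted p = 0.00213), -0.62 from day 7 (0.0392), -0.64 from day 12 (0.0364) and -0.68 from day 16 (0.0267). Without E13.5 replicate 1 only the first of these was called, at -0.82 (0.0143), and the others were -0.37 (0.219), -0.38 (0.200) and -0.43 (0.154). Leaving out either day 7 array gave 0.166 and 0.0968 against day 7, either day 12 array gave 0.129 and 0.111 against day 12, and either day 16 array gave 0.102 and 0.103 against day 16. Under normexp none of the 4 was called, and the difference from Dazl GFP+ ES cells was -0.54 (0.0526), where the median of all genes was -0.51. Dppa2 and Dppa3 stood on opposite sides of Dazl GFP+ ES cells at E13.5, Dppa2 below and Dppa3 above, and both differences were called with either E13.5 library left out. In a fit of the compared arrays alone neither was called (0.0793 and 0.0909). In juvenile cells Dppa2 had -2.41 and -1.78, and it fell by 3.51 ± 0.22 against E13.5 cells (11.4-fold, 1.06e-06), with a difference of -3.77 without E13.5 replicate 1.

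Dppa4, the partner of Dppa2, followed it in the sorts without passing the test. It had 3.70 and 3.69 in Dazl GFP+ cells, against 2.57 and 2.69 in Dazl GFP- cells, a difference of 1.07 ± 0.42 (adjusted p = 0.271). In the Stella line it had 4.14 and 4.36 in GFP+ cells, against 3.70 and 3.89 in GFP- cells. After differentiation Dppa4 had 4.03 and 4.03 on day 7, 3.22 and 3.27 on day 12 and 3.47 and 3.49 on day 16. The differences from GFP+ ES cells of the same line were -0.22, -0.45 and -0.22, none called (adjusted p = 0.764, 0.460 and 0.743). Day 12 arrays lay below the Dazl GFP+ arrays without overlap, and a fit of only those arrays called the difference (0.0182). E13.5 cells had 3.03 and 4.21, a range wide enough to hold all arrays of Dazl GFP+, day 12 and day 16 cells, and the difference from Dazl GFP+ ES cells was -0.08 ± 0.42 (0.897). Its sign changed between the 2 libraries, to 0.51 without replicate 1. Against day 7, day 12 and day 16 the differences were -0.41, 0.38 and 0.14 with both libraries and 0.18, 0.97 and 0.73 without replicate 1, none of them called. Juvenile cells had -0.34 and 1.14, so that Dppa4 fell by 3.22 ± 0.42 against E13.5 cells (9.32-fold, 0.000173), the 1 call for Dppa4 in the 12 comparisons drawn in the plot of member differences. It was -3.81 without E13.5 replicate 1, -2.63 without E13.5 replicate 2, -2.48 without juvenile replicate 1 and -3.96 without juvenile replicate 2, and called in each case. In a fit of the 4 arrays of those groups alone its adjusted p was 0.0984.

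Dppa5a, the KH-domain protein, varied least across the cultured groups. Its brighter probe read 9.28 and 9.18 in Stella GFP+ cells, against 8.97 and 8.86 in Stella GFP- cells. It read 9.35 and 9.34 in Dazl GFP+ cells, against 8.41 and 8.33 in Dazl GFP- cells, a difference of 0.97 ± 0.44 (adjusted p = 0.357). It read 9.29 and 9.19 on day 7, 9.03 and 9.10 on day 12, and 9.06 and 9.08 on day 16. On 16 of 18 arrays this probe was read from the low-gain scan.

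The E13.5 libraries disagreed most on Dppa5a, with 7.53 in replicate 1 and 9.19 in replicate 2. Replicate 2 lay within the range of the cultured GFP+ arrays and replicate 1 below all of them. The difference of the mean from Dazl GFP+ ES cells was -0.98 ± 0.44 (adjusted p = 0.087). Without replicate 1 the difference was -0.15, and without replicate 2 it was -1.81 (0.00095). Against day 7, day 12 and day 16 the differences were -0.88, -0.70 and -0.71, none called. They were -0.05, 0.13 and 0.12 without replicate 1, and -1.71, -1.53 and -1.54 without replicate 2, when all 3 were called. Juvenile cells read 2.12 and 3.17 and the level fell by 5.72 ± 0.44 against E13.5 cells (52.5-fold, 3.57e-06), with a difference of -6.55 without E13.5 replicate 1 and of -4.88 without replicate 2. The second probe read 5.29 to 6.60 in cultured cells and gave -5.90 ± 0.50 for the same difference.

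The order of the 9 groups differed between members, but its lower end did not. Stella GFP+ ES cells were highest for Dppa2 and Dppa4, E13.5 cells for Dppa3 and Dazl GFP+ ES cells for Dppa5a. Juvenile cells were lowest for all 4, and each member was called lower in juvenile cells than in each of the 8 other groups, 32 of 32 tests, where 54.9, 53.8, 52.5, 53.8, 53.3, 48.9, 49.3 and 34.8% of genes were called in either direction against Stella GFP+ and GFP-, Dazl GFP- and GFP+, day 7, day 12, day 16 and E13.5 cells. These tests share the juvenile arrays. For each member the step into juvenile cells was the 1 step between neighbours in its order that was called. No neighbouring pair among the other 8 groups passed the test, with differences from 0.00 for day 16 over day 12 cells in Dppa5a to 1.02 for Stella over Dazl GFP+ ES cells in Dppa3 (adjusted p = 0.180). In the neighbouring pairs outside the comparisons above, the share of all genes called was 2.39% for Stella over Dazl GFP- ES cells, 2.69% for Stella GFP- over Dazl GFP+ ES cells and 3.26% for Stella over Dazl GFP+ ES cells. It was 21.4% for day 7 against day 12 cells, 30.1% for day 7 against Dazl GFP+ ES cells and 29.5% for day 16 against Stella GFP+ ES cells. Against Stella GFP- ES cells it was 25.6% for day 7 and 27.9% for day 12 cells, and against Dazl GFP- ES cells it was 34.4, 27.9, 24.6 and 43.8% for day 7, day 12, day 16 and E13.5 cells.

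Over the 9 group means the members correlated at r = 0.82 to 0.98. Without the juvenile group, the 8 other means gave 0.69 for Dppa2 with Dppa4 and 0.80 for Dppa2 with Dppa5a, with 0.62 for Dppa4 with Dppa5a, 0.51 for Dppa3 with Dppa4, 0.05 for Dppa3 with Dppa5a and -0.14 for Dppa2 with Dppa3. These are descriptions over few points that share slides and scaling. Among 13646 genes whose means spanned at least 1 log2 unit, those most like Dppa2 were Ezh2 (0.994), Esrrb (0.993), Rps18, Cndp2 and Sox2. Ezh2 is the Polycomb histone methyltransferase, and Esrrb and Sox2 are pluripotency factors. Those most like Dppa3 were Cdk5rap1 (0.971), Ptpn6 (0.962), Pecr, Liph and Gls2. Pla2g10 (0.987), Dars, Pola1, Ckb and Lrrc34 were most like Dppa4, and Pdlim1 (0.992), Cwf19l2, Sox2, Ifitm7 and Nfatc4 most like Dppa5a. Of all candidates, 3% exceeded 0.9 with Dppa2 and 2.73% with Dppa5a, against 1.55% with Dppa4 and 0.667% with Dppa3.

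The genes around Dppa3 moved in both directions at E13.5, and Nanog, directly beside it, moved against it. Nanog, the homeobox factor of pluripotency on one side of Dppa3, was lower in E13.5 than in Dazl GFP+ ES cells, with a log2 difference of -2.34 ± 0.49 (adjusted p = 0.00249). Gdf3, a TGF-beta family ligand on the other side, had -1.56 ± 0.44 (0.0139). Farther out, Apobec1, an RNA-editing deaminase, had -2.27, and Slc2a3, a glucose transporter, had -3.01. Mfap5, a microfibril protein, was at least 13.1-fold lower, because it was not well above background at E13.5. Rimklb and the forkhead factor gene Foxj2 were higher, by 1.20 and 1.91. Without E13.5 replicate 1 the difference was -1.25 for Nanog (0.00121), -1.45 for Apobec1 (0.00254) and -0.61 for Gdf3, which was then not called (0.0612). A fold written as at least sets the brighter mean against the dimmest signal that counts as above background.

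In juvenile cells 5 of 8 neighbours tested fell with Dppa3. Gdf3 was at least 66.1-fold and Nanog at least 62.3-fold lower than in E13.5 cells, both not well above background in juvenile cells. The log2 differences of Slc2a3, Apobec1 and Rimklb were -2.77, -1.54 and -0.97. Foxj2 and Necap1 did not pass the test, and Mfap5 was not well above background in either group. Of these 5 calls 4 remained without E13.5 replicate 1, when Rimklb was not called (-0.75, 0.0802).

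**Figure D3:**
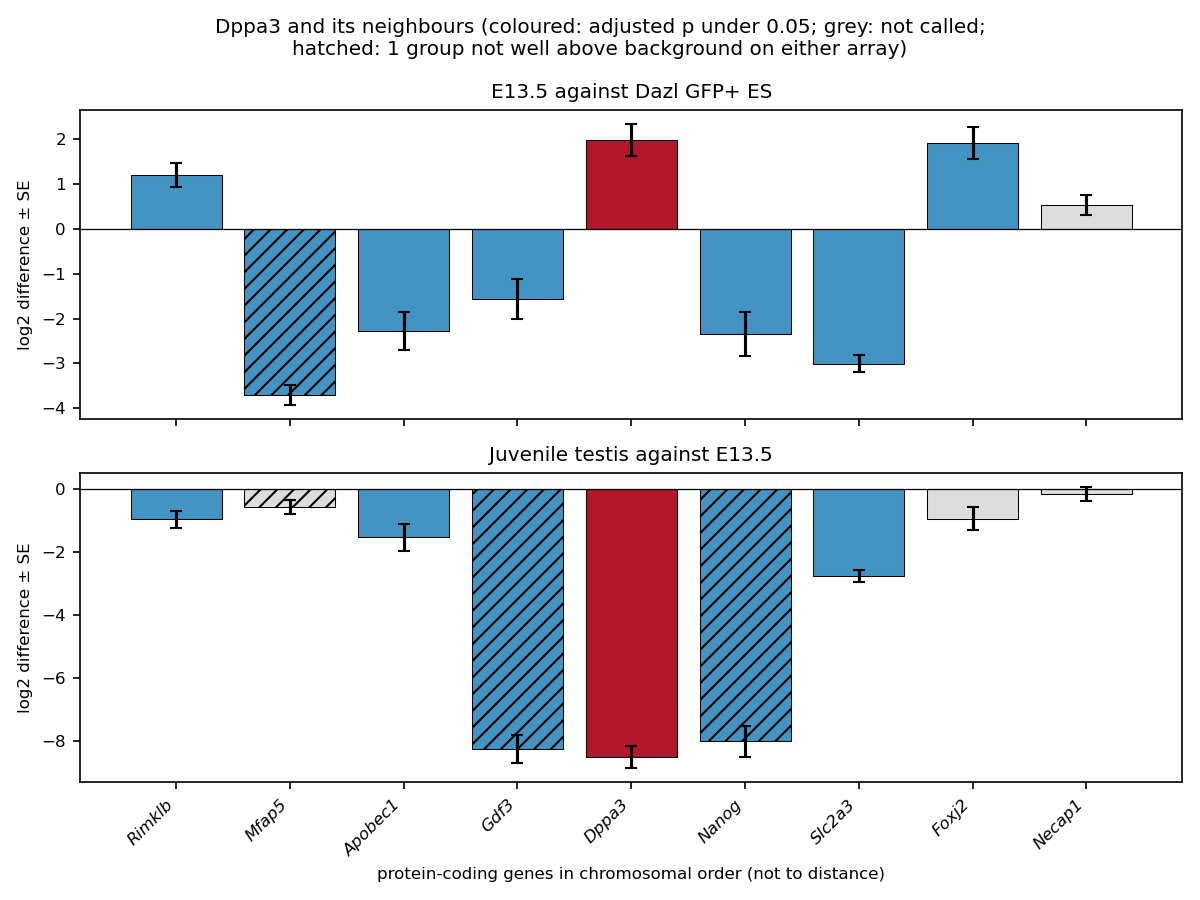
Log2 differences with standard errors for Dppa3 and 8 protein-coding genes around it in chromosomal order, for E13.5 over Dazl GFP+ ES cells (top) and juvenile testis over E13.5 cells (bottom). Dppa3 stands at 1.97 between Gdf3 at -1.56 and Nanog at -2.34 in the upper panel. Hatched bars mark genes with at least 1 group not well above background on either array, and for Mfap5 in the lower panel this held for both groups.

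Morc1, a germline gene of the Morc ATPase family next to Dppa2, moved apart from the pair. In E13.5 cells it was lower than in Dazl GFP+ ES cells, at -4.01 ± 0.38 on the log2 scale (16.1-fold, adjusted p = 1.0e-05), where Dppa2 had -1.07 and Dppa4 was not called. It was higher in juvenile than in E13.5 cells by 1.63 ± 0.38 (3.09-fold, 0.0063), where both Dppa genes were lower. Beside Dppa5a lies Ooep, another KH-domain gene, known in the mouse as part of the egg's subcortical complex. Ooep was lower in E13.5 than in Dazl GFP+ ES cells (-2.04) and in juvenile than in E13.5 cells (-4.18 ± 0.50, 18.1-fold), and without E13.5 replicate 1 these were -0.90 (0.00157) and -5.32. In the list of Dppa5a neighbours and KH-domain relatives, the 6 genes matched by symbol were all lower in juvenile cells. Among them were Khdc3 (-5.71) and Khdc1a, which was well above background on 1 of 2 juvenile arrays (-6.50). The list also holds Mthfd1l, a gene not looked up as a neighbour, and it does not cover the whole locus. Gsta2, on the other side of Dppa5a and outside the list, was called higher in juvenile than in E13.5 cells (adjusted p = 0.00378). It was not well above background on either E13.5 array. Cgas, another neighbour, stood in the list under an older symbol and was therefore left out of the 6. It was tested and not called (0.77, 0.137), so not every listed gene measured was lower. The median of the 6, without Cgas, was -3.04, and that of all genes -0.08. Khdc1a was at least 23.8-fold higher in E13.5 than in Dazl GFP+ ES cells, where Dppa5a was not called. Both arrays of a group were well above background for Khdc1a only on day 7 and at E13.5, so it entered the test through groups where it was high.

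Genes of the 2-cell embryo, which lie downstream of Dppa2 and Dppa4 through Dux, rose on day 12 while neither regulator passed the test in the main fit. In a fit of only the arrays compared both regulators were called lower (adjusted p = 0.0196 for Dppa2 and 0.0182 for Dppa4). Of 12 listed genes 7 were tested, Dux not among them, and 6 were higher in day 12 than in Dazl GFP+ ES cells. Zscan4c, a zinc finger gene of the 2-cell state, was higher by 5.57 ± 0.47 (47.5-fold, adjusted p = 1.41e-05) and Tcstv3 by 5.60 (48.4-fold). Tcstv1 was higher by 6.91 and the deubiquitinase gene Usp17la by 6.03, each measured on 1 of the 2 Dazl GFP+ arrays. Zfp352 was at least 11.4-fold and Sp110 at least 11.8-fold higher. Zfp352 was well above background only on day 12 and day 16, so it entered the test through the groups where it was high. Near-identical copies of Zscan4, Tcstv and Usp17l genes can share these probes. The median of the list was 5.57, and that of all genes -0.11.

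The rise was smaller on day 16. The summed linear level of the 7 genes was 0.417 to 0.603 in Dazl GFP+ ES cells, 25.4 to 26.1 on day 12 and 2.35 to 2.46 on day 16, and it stayed at or below 1.10 in all 6 other groups. In day 16 against day 12 cells 5 of the 7 were lower, among them Tcstv1 (-4.04), Tcstv3 (-3.97), Zscan4c (-3.56) and Zfp352 (-3.29), with a list median of -3.29 against -0.05 for all genes. Dppa2 differed by 0.05 and Dppa4 by 0.24 between the same groups, at an adjusted p of 0.9999 each. The fibroblast markers were at a summed level of 2.30 to 2.40 on day 12 and of 3.28 to 3.34 on day 16, below the 41.4 to 44.8 of Dazl GFP+ ES cells, and their part in these values was not tested.

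**Figure D4:**
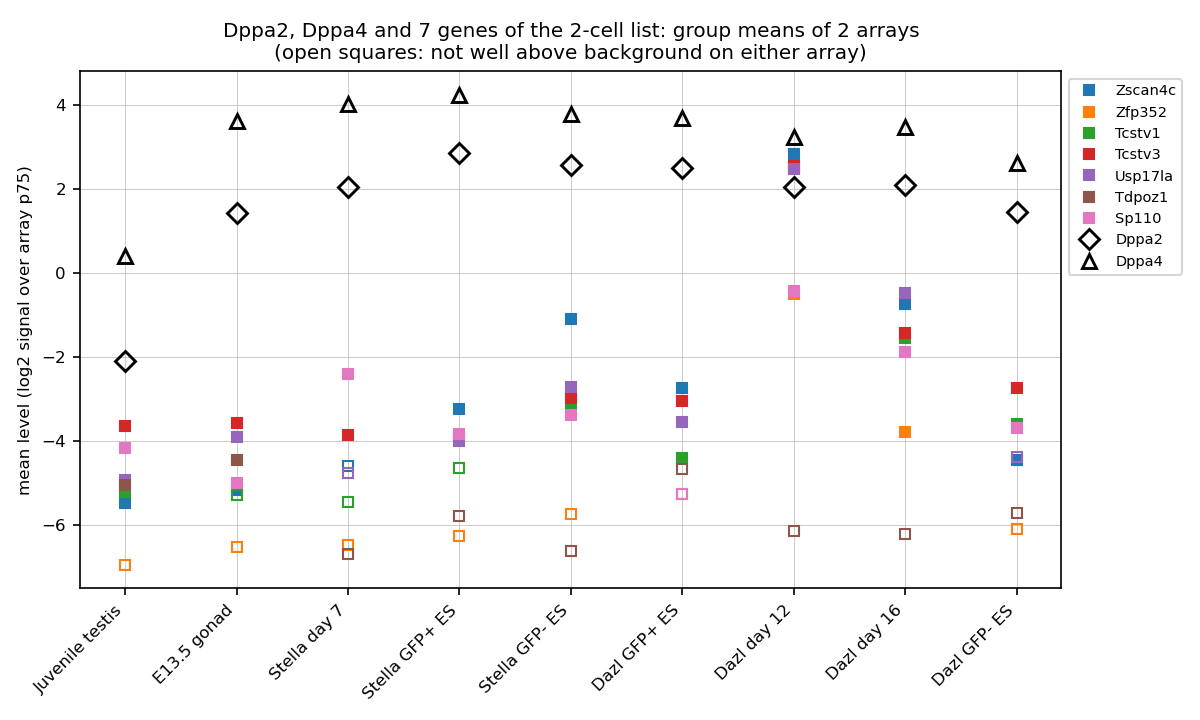
Mean level in each group, as log2 signal over the array's 75th percentile, of Dppa2 and Dppa4 (black symbols) and of the 7 tested 2-cell genes (squares). On day 12 the Zscan4c mean is 2.84, and in every other group it is at or below -0.72, whereas Dppa2 stays between 1.42 and 2.87 in all groups other than juvenile testis.

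A list of genes for DNA methyltransferases, their cofactors, Uhrf proteins and Tet oxidases had 9 members, and all 9 were tested. None was called in the Stella sort, and the median of the list was -0.08. Only 0.44% of all genes were called there, so the lack of calls does not show that these genes stayed level. In the Dazl sort Tet2, a methylcytosine oxidase, was higher by 1.55. On day 7 the de novo methyltransferase gene Dnmt3b (-2.71), its cofactor Dnmt3l (-1.62) and Uhrf1 (-0.94) were lower, and Uhrf2 was higher by 0.81, while Dppa3 was not called. On day 12, 5 of the 9 were lower than in Dazl GFP+ ES cells, among them Dnmt3b (-3.61) and Dnmt3l (-2.49), and 2 were higher, Uhrf2 by 0.92 and Tet3 by 1.46. On day 16, 1 was lower and 2 were higher.

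E13.5 cells, with the highest Dppa3 mean, had lower RNA of the de novo enzyme gene Dnmt3b and of its cofactor Dnmt3l, whereas Dnmt3a was not called. Against Dazl GFP+ ES cells the log2 difference was -8.73 ± 0.40 for Dnmt3l (426-fold, adjusted p = 5.58e-08) and -6.33 ± 0.34 for Dnmt3b (80.5-fold, 1.56e-07). Tet2, Tet1 and Uhrf1 were also lower (-2.69, -1.71 and -0.92), and Dnmt1 and Uhrf2 were higher, by 1.10 and 0.62. Without E13.5 replicate 1 all 7 calls remained, with Dnmt3l at -7.87, Tet1 at -0.91 and Tet3 called as well (-1.62, 0.00335). In juvenile cells, with the lowest Dppa3, 4 of the 9 were higher than in E13.5 cells, Dnmt3b by 3.47, Tet3 by 3.24, Dnmt3l by 1.27 and Dnmt3a by 1.14. Tet1 (-2.60) and Uhrf2 (-1.19) were lower, and Tet2 was at least 5.29-fold lower. Of these 7 calls 6 remained without E13.5 replicate 1, and Dnmt3l was not called (0.40, 0.0991). Median differences of the list were -0.92 at E13.5 over Dazl GFP+ ES cells and 0.42 in juvenile over E13.5 cells, beside 0.05 and -0.08 for all genes.

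The members can be set beside the general pluripotency and germ cell lists. Of 13 pluripotency genes tested, 9 were lower in E13.5 than in Dazl GFP+ ES cells, for example Sox2 (-2.46) and Klf2 (-2.81), and the median was -2.46. All 9 were called lower without E13.5 replicate 1 too. Of the members Dppa2 was called lower there and Dppa3 higher. In juvenile against E13.5 cells 9 of the 13 were lower, Sox2 at least 194-fold, and 2 were higher, Klf4 by 1.66 and Tbx3 by 1.68. Of 11 early germ cell genes tested, 8 were lower in that comparison, including Ifitm1 (-6.34) and Tfap2c (-3.53). Of the 12 gonadal germ cell genes 2 were lower and 2 higher, with Tdrd9 higher by 4.17, and without E13.5 replicate 1 the counts were 2 lower and 5 higher. From a list of genes active in the egg 6 were tested, and 4 of them were higher in juvenile than in E13.5 cells. Tle6 (1.99) and Npm2 (2.16) are maternal effect genes, the class to which Stella belongs in the egg. The others were Zp3 (3.60) and Gdf9 (1.44). None of the 6 was lower, where the difference of Dppa3 was -8.49.

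The authors' deposited table of group means, which was scaled to each array's median by its own comment line, gave Dppa3 means of 537 in Stella GFP+ against 84.7 in Stella GFP- ES cells. In the authors' deposited table the E13.5 mean of Dppa3 was 1016 with a standard error of 506, and the juvenile mean was 2.26. For Dppa5a the authors' deposited table gave 4150 with a standard error of 2214 in E13.5 cells and 63.6 in juvenile cells.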

How the data were processed

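RNA of 18 samples was hybridised to one-colour Agilent arrays. Spot intensities were made by the authors with Agilent Feature Extraction 9.1.3.1, with local background subtraction and spatial detrending, per the file headers. The deposited group table holds mean intensities and standard errors made with GeneSifter, per its comment line. No genome build is given in the sources used here.

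The deposited intensities were used as log2 values minus the log2 of each array's 75th percentile over non-control spots. Outlier-flagged spots were left out and spots of a probe averaged. Of 41174 probes, 28114 passed the filter, which asks that both arrays of some group be well above background, and the brightest probe stood for each of 18876 genes. Names came from accessions for 22839 probes, from symbols or synonyms for 9725 and from the files alone for 8438. A means model of the 9 groups was fitted with limma 3.58.1 in R 4.3.3, which gave 12 comparisons and all 36 pairs with two-sided tests and Benjamini-Hochberg adjustment over all genes. The scripts were tested on simulated data. Figures were drawn with matplotlib 3.10.9. The number of arrays limits the precision.

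The members and lists were chosen with earlier results of these data known. The genes named are the 4 members, the 5 genes most correlated with each, and up to 4 called genes per direction in each list. The chromosomal neighbours of the members were looked up after the values were seen, and 1 of them is not reported here. Alternatives were quantile normalization, normexp background correction, a signal floor, other probe filters, the mean over a gene's probes, slide or replicate number as a block, fits of only the arrays compared, each array left out, and E13.5 replicate 1 left out of every comparison.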

Additional observations from a re-analysis of the deposited data

How the results depend on the processing

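The lower level of all 4 members in juvenile cells was called under every alternative run other than the fit of the compared arrays alone, which called 3 of them. Elsewhere calls changed, and unless the alternative itself used fewer arrays the cause was not tested. The share of all genes called under each alternative is not given here. The counts of members below therefore cannot be set against it, and a fit may call more or fewer genes of any kind. Normexp moved the median of all genes by -0.75 to 0.35 between groups and quantile normalization by -0.14 to 0.13, so member differences there are relative to that shift. Of the 4 members, quantile normalization called 0 on day 7. Normexp called 0 in the Dazl sort, 0 on day 7, 1 on day 16 against day 12, and 1, 0, 1 and 1 at E13.5 against Dazl GFP+ ES, day 7, day 12 and day 16 cells. With no filter on dim probes the count was 0 in the Dazl sort and 1 at E13.5 against day 12. Slide as a block gave 0 in both sorts. Fits of only the arrays compared gave 0 in the Stella sort, 4 in the Dazl sort, 0 on day 7, 2 on day 12, 3 on day 16, 1 on day 16 against day 12, and 0 in all 4 E13.5 comparisons. Without E13.5 replicate 1 in any fit the count was 2 in the Dazl sort, 1 in the difference of the sorts and 1 on day 16. With each array left out in turn it ranged from 0 to 1 in the Stella sort, 0 to 0 in the Dazl sort, 0 to 0 on day 7, 0 to 2 at E13.5 against day 7, 1 to 3 against day 12 and 1 to 3 against day 16. The highest and lowest groups were kept for 2 of 4 members under normexp. Quantile normalization kept them for every member other than Dppa4, which was then highest in day 7 cells.

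Signs turned only for differences that were not called. Under quantile normalization these were Dppa4 on day 7 (0.17), Dppa3 on day 12 (0.22), Dppa4 on day 16 (0.072) and Dppa4 at E13.5 against day 16 (-0.21). Under normexp they were Dppa4 on day 7 (0.090), Dppa3, Dppa4 and Dppa5a on day 12 (0.21, 0.049 and 0.11), Dppa2, Dppa4 and Dppa5a on day 16 against day 12 (-0.42, -0.31 and -0.63), Dppa4 at E13.5 against Dazl GFP+ ES cells (0.59) and Dppa5a at E13.5 against day 16 (0.11). Leaving out single arrays gave -0.041 to 0.059 for Dppa5a on day 7 and -0.028 to 0.036 on day 16 against day 12. At E13.5 it gave -0.67 to 0.51, -1.002 to 0.18, -0.21 to 0.97 and -0.45 to 0.73 for Dppa4 against Dazl GFP+ ES, day 7, day 12 and day 16 cells, and -1.53 to 0.13 and -1.54 to 0.12 for Dppa5a against day 12 and day 16. The replicate block changed no count of members called, with adjusted p values of 0.0184 for Dppa3 in the Stella sort, 0.0313 for Dppa2 in the Dazl sort and 0.0201 for Dppa2 on day 7. No label ties same-numbered samples to each other, so the numbers were not taken as pairs. Same-numbered samples deviated together with correlations of 0.24 to 0.56 in the 6 comparisons whose groups shared a slide and of -0.03 to 0.02 in the other 5.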
